A study of Mus musculus with 200 samples.

Results

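The *Peg3* imprinted domain is a cluster of genes on proximal mouse chromosome 7. Its members were taken by symbol, and 5 were named: *Peg3*, *Apeg3*, *Usp29*, *Zim1* and *Zfp264*. Of these, 4 have a row among the 22033 genes of the expression and allele tables, and *Zfp264* was not analysed here. The data were 3SEQ libraries, a 3′-biased form of RNA sequencing, each made from 1 whole embryo collected at embryonic day 11.5.

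B6 is the inbred strain C57BL/6J and Cast the inbred strain CAST/EiJ, which belong to separate subspecies of the house mouse. The F1 embryos were hybrids from both directions of the cross, named with the mother first: 8 were B6 × Cast and 8 were Cast × B6. The N2 embryos came from backcrosses of F1 animals to B6, and 89 had a B6 mother and an F1 father while 65 had an F1 mother and a B6 father. The F1 parents were themselves offspring of B6 females and Cast males, and no embryo was treated with any agent or carried an engineered allele. In the deposited genotypes the 4 members had the same code in each of the 154 N2 embryos. Among embryos of B6 mothers 54 were B6/B6 and 35 were B6/Cast at *Peg3*, and among embryos of F1 mothers 32 were B6/B6 and 33 were B6/Cast. A B6/Cast embryo thus received its Cast copy from the father when the mother was B6 and from the mother when the mother was F1.

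An imprinted gene is expressed mainly from the copy inherited from a given parent, because a DNA methylation mark set in the egg or the sperm is kept in the cells of the embryo. In the *Peg3* domain the mark is placed on the maternal copy, over the region in which *Peg3* and *Usp29* start, and those genes are transcribed in opposite directions from the unmethylated paternal copy. *Peg3* encodes a large zinc finger protein with known roles in growth, apoptosis and maternal behaviour. *Apeg3* is an RNA antisense to *Peg3*, *Usp29* encodes a deubiquitinating enzyme, and *Zim1* encodes a zinc finger protein and is known as a gene of the maternal copy.

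In the mm9 build used for the files, the GENCODE annotation places *Zim1* on chromosome 7 from 6628154 to 6649161 on the minus strand. *Peg3* follows from 6656603 to 6683132 on the minus strand, and *Usp29* from 6913871 to 6916480 on the plus strand. This GENCODE model of *Usp29* does not include its RefSeq start site, which lies beside the start of *Peg3*. *Apeg3* lies within *Peg3* on the opposite strand. Whether strand was used in counting is not given in the sources used here, so reads of *Apeg3* and *Peg3* cannot be told apart where the genes overlap.

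The stretch between the RefSeq start sites of *Peg3* and *Usp29* is shown because the 3 genes read from the paternal copy lie on both sides of it or within *Peg3*. It comprises 163 bases at chr7:6730420-6730582 of GRCm38.p6, and the same 163 bases have 1 match on chromosome 7 of mm9, from 6683131 to 6683293. It is written 5′ to 3′ on the plus strand, away from *Peg3* and towards *Usp29*, and the capitals mark the motif CCAAT.

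Peg3-Usp29 interval: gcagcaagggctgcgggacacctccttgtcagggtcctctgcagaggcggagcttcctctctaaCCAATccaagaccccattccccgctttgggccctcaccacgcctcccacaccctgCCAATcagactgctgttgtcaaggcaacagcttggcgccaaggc

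CCAAT was found 2 times, both on the plus strand. Of the 163 bases before each of 32851 RefSeq start sites, 25.9% held CCAAT on either strand and 6.59% held it at least 2 times. The interval held 5 CG dinucleotides, a number that 47.0% of those windows reached. GGCGG was found 1 time on either strand, overlapping a CG, and 41.1% of the windows held it. TGACGTCA was not found, and 1.41% of the windows held it.

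Each F1 embryo had between 15703888 and 38234229 reads counted on genes and each N2 embryo between 245220 and 5370322. The F1 embryos came from 2 litters per cross, which differed in stage. Where somites were counted, B6 × Cast embryos had 48 to 63 and Cast × B6 embryos 41 to 48. The N2 embryos came from 17 litters under B6 mothers and 12 under F1 mothers. The N2 libraries were run in 14 lanes of 2 flowcells, and 13 of the lanes held embryos of only 1 kind of mother, so lane and mother cannot be told apart in most comparisons. As a check of the dissection, 9 markers of trophoblast and decidua were read. Their summed level had a median of 0 RPM (reads per 1000000 counted reads) in N2 embryos and a highest value of 22.9, and was at most 0.579 in F1 embryos. The highest value was in a B6/B6 embryo of a B6 mother. B6/Cast embryos of B6 mothers reached 10.2 RPM, and N2 embryos of F1 mothers 5.98 RPM. *Prl3d1*, *Prl2c2*, *Ctsm* and *Ctsq* were at 0 in every embryo.

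The first question was from which parental copy each member was expressed in the F1 embryos. The B6 allele fraction (BAF) is the share of B6 among the allele votes of a gene, where a vote is a read, or part of one, that a SNP assigned to B6 or Cast. *Peg3*, *Apeg3* and *Usp29* were expressed from the paternal allele in both crosses and *Zim1* from the maternal allele. In B6 × Cast, where the father was Cast, 7 of 2313.5 *Peg3* votes were B6, giving a BAF of 0.00303. In Cast × B6, 1811.5 of 1812 votes were B6, giving a BAF of 0.9997.

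Per embryo, the BAF of *Peg3* ranged from 0 to 0.00824 in B6 × Cast, with a mean of 0.00243 ± 0.00346 (SD, n = 8). It ranged from 0.997 to 1 in Cast × B6, with a mean of 0.9997 ± 0.000911 (SD, n = 8). The embryos of the reciprocal crosses did not overlap and lay close to opposite ends of the scale.

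All 96 votes of *Apeg3* in B6 × Cast were Cast and all 207 in Cast × B6 were B6. Every one of the 16 embryos therefore had a BAF of 0 or 1 at this antisense RNA, with 3 to 20 votes per embryo in the first cross and 16 to 39 in the second.

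*Usp29* had few votes for its reads, 89 in B6 × Cast and 107 in Cast × B6. Its BAF was 0.0337 in the first cross and 0.991 in the second. The B6 votes of B6 × Cast came from 2 embryos, with BAFs of 0.0769 and 0.111, and the only Cast vote of Cast × B6 came from 1 embryo with a BAF of 0.933.

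*Zim1*, which lies next to *Peg3*, had the opposite pattern, with a BAF of 0.989 over 185 votes in B6 × Cast and 0.0387 over 181 votes in Cast × B6. Averaged over the 8 embryos of each cross, its BAF was 0.993 ± 0.0137 in the first and 0.0303 ± 0.0337 in the second (SD). The lowest embryo of the first cross stood at 0.967 and the highest of the second at 0.0789.

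For the 11911 genes with at least 20 votes per cross, the votes summed over embryos were set against equal expression in a binomial test. Imprinting was called where the higher alleles were opposite in the crosses and the Bonferroni-adjusted p stayed under 0.01 in each. All 4 members were called, and the largest adjusted p among them was 4.52e-18, for *Usp29* in B6 × Cast. Of all genes tested 162 were called, or 1.36%, and of these 115 lie on the X chromosome, all 115 higher from the maternal allele. A male embryo carries only its mother's X, and votes were summed without regard to sex. The 115 calls on the X are therefore not read as imprinting. Among the 11606 autosomal genes 47 were called, or 0.405%, 19 of them maternal and 28 paternal. Since the binomial test treats votes as independent, the embryos were also compared directly. For each member an exact two-sided permutation test of the BAF of 8 against 8 embryos gave p = 0.000155, the smallest it can give. A quasi-binomial test over embryos, which has few degrees of freedom, called 16 genes and, among the members, *Peg3* alone.

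The share of votes from the silenced allele is given with exact Clopper-Pearson 95% intervals, which cover counting error only. For *Peg3* it was 0.303% in B6 × Cast (interval 0.122% to 0.622%) and 0.0276% in Cast × B6 (0% to 0.203%). For *Usp29* it was 3.37% (0.701% to 9.54%) and 0.935% (0.0237% to 5.10%). For *Zim1* it was 1.08% (0.131% to 3.85%) in B6 × Cast, where the silenced allele is Cast, and 3.87% (1.57% to 7.81%) in Cast × B6, where it is B6. For *Apeg3* no such vote was seen, and the intervals for 0 of 96 and 0 of 207 votes reach up to 3.77% and 1.77%. The share per embryo did not differ detectably between the crosses for any member (exact two-sided permutation tests, n = 8 each, p = 0.200 for *Peg3*, 1.0 for *Apeg3*, 0.467 for *Usp29* and 0.114 for *Zim1*).

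The N2 embryos gave the same comparison in other litters, with fewer reads. Heterozygous embryos had a median of 19 *Peg3* votes under both kinds of mother. With at least 5 votes per embryo, the BAF of *Peg3* was 0.0138 ± 0.0491 under B6 mothers (SD, n = 31), and under F1 mothers it was 0.999 ± 0.00568 (SD, n = 33). The highest embryo of the former stood at 0.267, with 4 B6 votes among 15, and the lowest of the latter at 0.971. The groups did not overlap (two-sided permutation test, p = 2e-05, the smallest that 100000 resamples can give). Within the first flowcell the means were 0.0109 and 0.999, and within the second 0.0154 and 0.999.

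The other members had too few votes for a minimum of 5 in most embryos. At that minimum *Usp29* could be read in 2 embryos of B6 mothers, both with a BAF of 0, and in 7 of F1 mothers, with a mean of 0.976 ± 0.0630 (SD), and an exact permutation test gave p = 0.0556, the smallest that 2 against 7 allow. With at least 1 vote per embryo, the mean BAF of *Usp29* was 0.0370 in 27 embryos of B6 mothers and 0.978 in 30 of F1 mothers (permutation test, p = 2e-05). For *Apeg3* it was 0 in 8 embryos and 1 in 10 (exact permutation test, p = 4.57e-05). For *Zim1* it was 0.989 in 22 embryos and 0.00641 in 26 (permutation test, p = 2e-05). The paternal allele was thus the expressed one for *Peg3*, *Apeg3* and *Usp29*, and the maternal one for *Zim1*, in the hybrids and in the backcross alike.

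**Figure D1:**
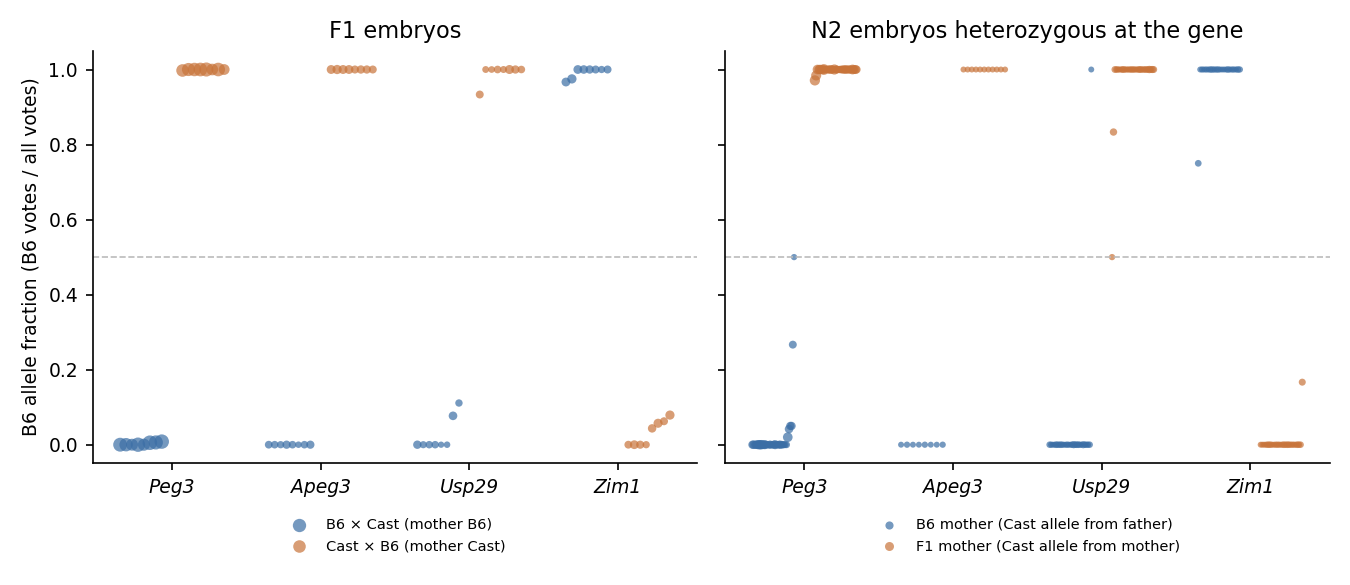
The B6 allele fraction (vertical axis, no unit) of each member in single embryos, F1 on the left and heterozygous N2 embryos with any vote on the right, with the area of a point growing with its votes and a dashed line at equal expression. In F1 embryos *Peg3*, *Apeg3* and *Usp29* lie at or below 0.111 where the father was Cast and at or above 0.933 where he was B6, and *Zim1* is reversed. Among N2 embryos all but a few points lie at or near 0 or 1. The *Usp29* point of a B6 mother at 1, opposite to its group, is an embryo with only 1 vote, whose BAF could only be 0 or 1.

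Votes for the silenced *Peg3* allele in N2 embryos were compared with votes for an allele that the embryo does not carry. In heterozygous embryos of B6 mothers 9 of 653 votes, or 1.38% (0.632% to 2.60%), came from the maternal B6 allele, and 6 of the 34 embryos with votes had any. A single embryo gave 4 of the 9, and without it the share was 5 of 638 votes, or 0.784%. In heterozygous embryos of F1 mothers it was 3 of 910.5 votes, or 0.329%. In B6/B6 embryos, which have no Cast allele at the gene, Cast votes made up 0.802% (0.450% to 1.32%) of *Peg3* votes under B6 mothers and 0.128% under F1 mothers. These Cast votes were uneven too, with a lowest BAF of 0.773 among B6/B6 embryos of B6 mothers with at least 5 votes. No B6/B6 embryo was left out. With all embryos kept, the silenced share in heterozygotes and the share of an uncarried allele had overlapping intervals. Under B6 mothers the silenced allele was B6 and the uncarried one Cast, so the 2 shares there count votes for different alleles. Over all autosomal genes the Cast share in B6/B6 embryos was 0.180% and 0.213%.

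Of the genes in the tables, the 5 nearest on each side of the members were read as well. Toward the centromere these were the olfactory receptor genes *Olfr1350*, *Olfr1349*, *Olfr1348*, *Olfr1347* and *Olfr5*, of which only *Olfr1348* had any read, 4 in all F1 embryos and 0 in N2. On the other side were *Zim3*, *Aurkc*, *Zfp954*, *Zfp773* and *Zfp418*, and *Mir3099* lies among the members. Only *Zfp954*, a zinc finger gene, reached the vote minimum. Its BAF was 0.491 over 1675 votes in B6 × Cast and 0.429 over 1699 votes in Cast × B6, on the same side of equal expression, and it was not called imprinted.

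The next comparison concerned total level in the F1 crosses. In B6 × Cast *Peg3* stood at 34.9, 40.6 and 30.6 RPM in the 3 embryos of litter 3 and at 53.3, 41.5, 34.3, 33.3 and 39.3 RPM in the 5 of litter 5. In Cast × B6 it stood at 63.5, 34.2, 30.8 and 39.3 RPM in litter 1 and at 35.1, 46.4, 36.6 and 25.9 RPM in litter 2. The crosses overlapped over most of their range, with means of 38.5 ± 7.12 and 38.97 ± 11.6 RPM (SD, n = 8 each). The difference was within the spread of the embryos (exact two-sided permutation test, p = 0.923).

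**Figure D2:**
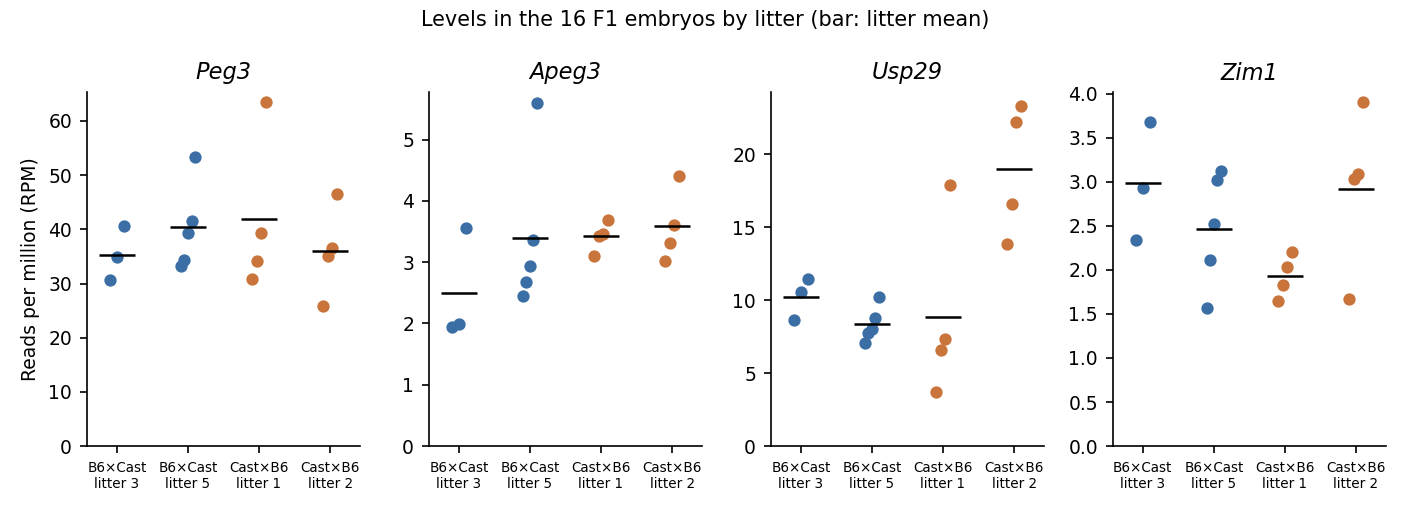
Level of each member in RPM (vertical axes from 0, different for each gene) in the 16 F1 embryos, by litter, with a bar at the litter mean. *Usp29* in litter 2 of Cast × B6 has a mean of 19.0 RPM, above the means of 8.38 to 10.2 RPM in the other litters, and among the other members the litters overlap except for *Zim1* between litter 1 of Cast × B6 (up to 2.197 RPM) and litter 3 of B6 × Cast (from 2.33 RPM).

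*Usp29* was the member whose litters differed most. Its level was 7.07 to 11.4 RPM over the 8 embryos of B6 × Cast. In Cast × B6 it was 17.9, 6.56, 3.71 and 7.35 RPM in litter 1 and 22.2, 23.3, 16.6 and 13.8 RPM in litter 2. All 4 embryos of litter 2 and 1 of litter 1 lay above every embryo of the other cross. *Apeg3* was at 1.93 to 5.59 RPM in B6 × Cast and at 3.03 to 4.41 RPM in Cast × B6, and *Zim1* at 1.57 to 3.68 and 1.65 to 3.902 RPM, with overlap for both.

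None of the 4 members passed edgeR's quasi-likelihood test at a Benjamini-Hochberg adjusted p under 0.05, while 25.9% of the 14625 genes tested did. The log2 fold change of B6 × Cast over Cast × B6 was -0.09 ± 0.17 (SE) for *Peg3*, -0.26 ± 0.19 for *Apeg3*, 0.08 ± 0.18 for *Zim1* and -0.67 ± 0.28 for *Usp29* (edgeR, unadjusted p = 0.0284, adjusted p = 0.0852). Between the litters closest in stage, litter 5 of B6 × Cast with 48 to 50 somites and litter 2 of Cast × B6 with 46 to 48, *Usp29* differed by -1.11 ± 0.16 (edgeR, adjusted p = 0.00567) and by 8.38 ± 1.205 against 19.0 ± 4.52 RPM (SD, n = 5 and 4, exact two-sided permutation test, p = 0.0159). Without litter 2 the difference between the crosses was -0.14, and litter 2 was also the only litter sequenced in another pair of runs. Each cross had 2 litters, so cross, litter, stage and run cannot be told apart.

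In the N2 embryos the mother's genotype was compared next. *Peg3* had a median of 20.03 RPM in embryos of B6 mothers (lowest 0.994, highest 98.9, n = 89) and of 20.6 RPM in embryos of F1 mothers (4.54 to 79.04, n = 65). *Usp29* had medians of 16.4 RPM (0 to 55.0) and 16.8 RPM (2.06 to 68.3). *Apeg3* had medians of 4.29 RPM (0 to 69.3) and 3.66 RPM (0 to 14.4), so its highest embryos were all of B6 mothers. *Zim1* had medians of 1.06 RPM (0 to 4.08) and 1.66 RPM (0 to 5.29). The groups overlapped for every member.

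By edgeR 25.4% of the 10395 genes tested, or 2643, differed between the mothers. In limma, with litter as a random block, 0 genes passed (950 at an unadjusted p under 0.05), and with lane as a random block 1 did (1118). Of the 3 members tested *Apeg3* passed, higher with a B6 mother by 0.92 ± 0.23 on the log2 scale (edgeR, adjusted p = 0.000806). *Peg3* differed by 0.14 ± 0.14 and *Usp29* by -0.07 ± 0.14, and neither passed. *Zim1* did not pass the filter on low counts, and without that filter it was lower with a B6 mother by -0.57 ± 0.20 (edgeR, adjusted p = 0.0365). That fit takes littermates as independent, and over litter means of *Zim1* a permutation test gave p = 0.188 (17 against 12 litters).

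The *Apeg3* difference came with lane J. The 11 embryos of that lane, all of B6 mothers, had a median *Apeg3* level of 30.2 RPM (13.6 to 69.3) and a median depth of 577807 reads, against lane medians of *Apeg3* between 1.00 and 9.68 RPM elsewhere. Without lane J the difference was 0.29 ± 0.19 (edgeR, adjusted p = 0.281). In the first flowcell alone it was -0.10 and in the second, which held lane J, 0.98. With lane as a random block in limma it was -0.074, and over litter means a permutation test gave p = 0.0508 (17 against 12 litters).

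The comparison of littermates by their own genotype asked whether a Cast copy changed the level of a member, and whether this depended on the parent that gave it. Among these N2 littermates *Peg3* was lower with a Cast copy from the father, and no difference was seen with a Cast copy from the mother. The F1 crosses did not show a lower level with a Cast father. Their *Peg3* means were 38.5 RPM with a Cast father and 38.97 RPM with a B6 father (exact permutation test, p = 0.923). Cross could not be told apart from litter, stage and run there, and why F1 and N2 embryos differed was not tested. In embryos of B6 mothers *Peg3* had a median of 23.01 RPM in B6/B6 (1.46 to 98.9, mean 30.5, n = 54) and of 17.1 RPM in B6/Cast (0.994 to 43.0, mean 17.9, n = 35). The ranges overlapped, and every embryo above 43.0 RPM except the highest B6/Cast embryo itself was B6/B6. In embryos of F1 mothers the median was 17.5 RPM in B6/B6 (5.29 to 54.2, mean 21.6, n = 32) and 21.97 RPM in B6/Cast (4.54 to 79.04, mean 23.9, n = 33).

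**Figure D3:**
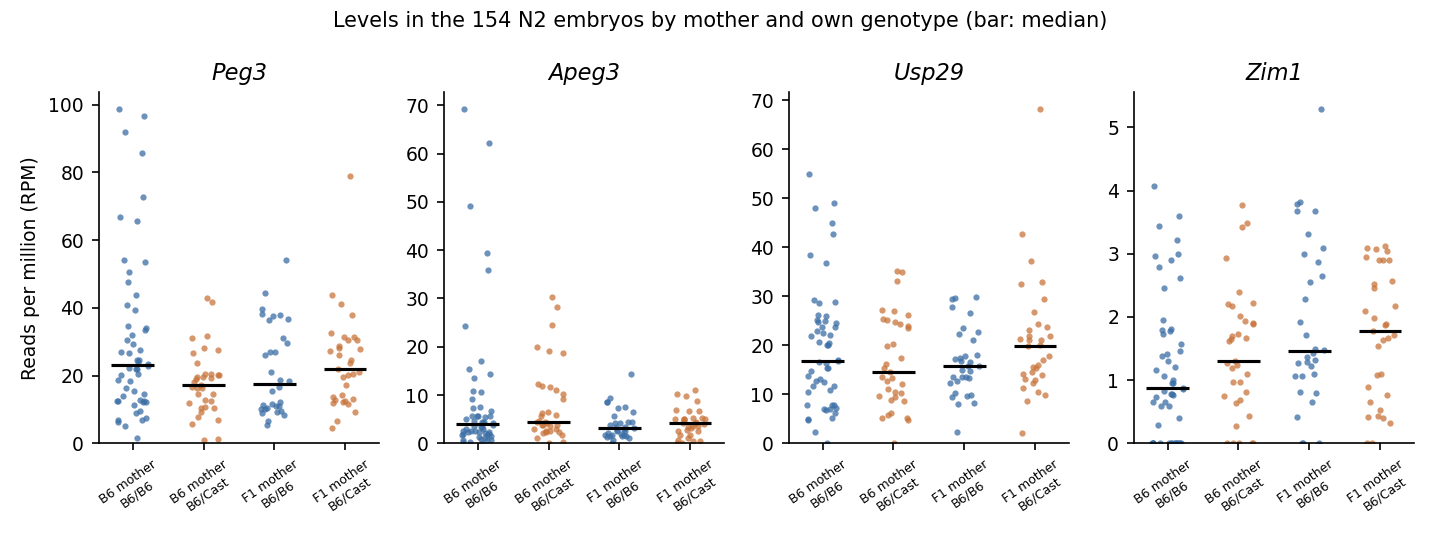
Level of each member in RPM (vertical axes from 0, different for each gene) in the 154 N2 embryos by mother and own genotype, with a bar at the median and points spread sideways at random. For *Peg3* the B6/Cast embryos of B6 mothers have a median of 17.1 RPM against 23.01 RPM in their B6/B6 littermates, and the highest *Apeg3* points, up to 69.3 RPM, are embryos of B6 mothers.

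With litter as a covariate, the log2 fold change of *Peg3* in B6/Cast over B6/B6 embryos of B6 mothers was -0.79 ± 0.17 (SE, 95% interval -1.13 to -0.45), a ratio of 0.578 (edgeR, adjusted p = 0.00982). Only 17 of the 11561 genes tested, or 0.147%, passed in this comparison. In embryos of F1 mothers the change was -0.01 ± 0.20 (-0.40 to 0.39; edgeR, adjusted p = 1.00), and 3 genes, or 0.0259%, passed. The difference between the mothers in the effect of genotype was -0.78 ± 0.26 (unadjusted p = 0.00331 by edgeR). This was the smallest p of the 11561 genes, but after adjustment it was 1.00, and 0 genes, or 0%, passed this test, with 60 at an unadjusted p under 0.05 and 0 by DESeq2 as well.

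Litter by litter, the mean of log2(RPM + 1) was lower in B6/Cast than in B6/B6 embryos in 13 of 16 litters of B6 mothers, with a mean difference of -0.84 ± 0.76 (SD over litters; exact two-sided sign-flip permutation test, p = 0.000488). At the low end stood litter 17, with means of 60.1 RPM in 2 B6/B6 and 15.1 RPM in 6 B6/Cast embryos, and at the high end litter 16, with 22.4 RPM in 2 and 24.8 RPM in 3 embryos. Among F1 mothers B6/Cast embryos were lower in 7 of 11 litters, with a mean difference of -0.01 ± 0.42 (exact sign-flip permutation test, p = 0.958). The test was run 8 times, for 4 members and 2 kinds of mother, and the p-values are unadjusted.

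**Figure D4:**
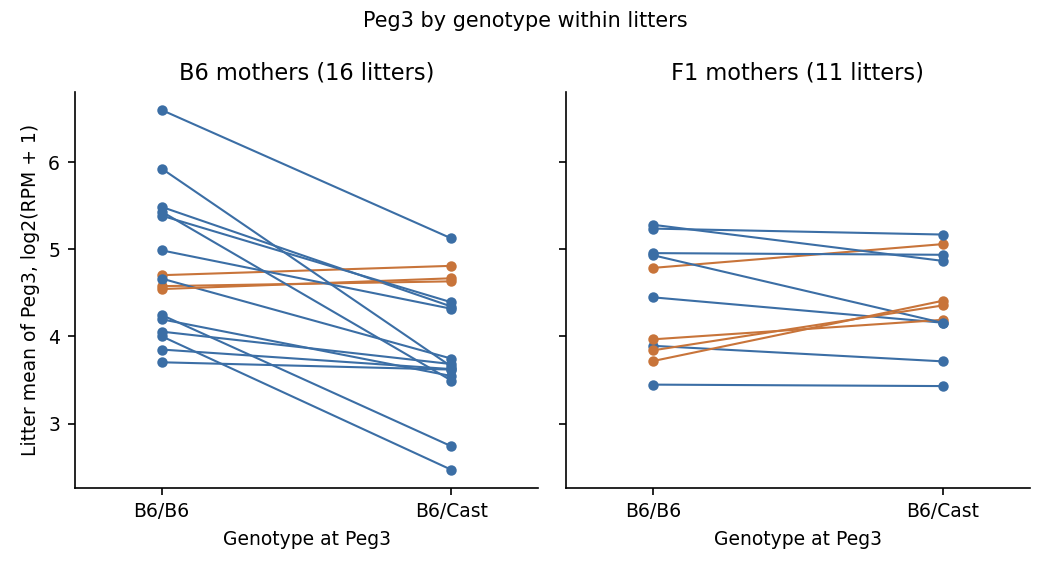
Mean *Peg3* level of B6/B6 and B6/Cast littermates, as log2(RPM + 1) on the vertical axis, with a line for each litter (blue where B6/Cast was lower, orange where it was higher). In 13 of 16 litters of B6 mothers the line falls, against 7 of 11 litters of F1 mothers.

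The votes, which count only reads at SNPs, gave 15.8 *Peg3* votes per 1000000 reads in B6/B6 and 8.62 in B6/Cast embryos of B6 mothers, and 10.9 and 12.4 in embryos of F1 mothers. Votes per 100 *Peg3* reads were 53.9 and 50.2 under B6 mothers and 51.5 and 50.2 under F1 mothers. In the F1 embryos they were 27.4 in B6 × Cast (26.3 to 29.6) and 19.7 in Cast × B6 (10.8 to 25.3), without overlap. The yield of votes thus differed between the F1 crosses, which limits votes as a measure of level. In whole embryos, fewer cells with active *Peg3* and less *Peg3* RNA per cell cannot be told apart. The result for B6 mothers had the same direction in the first flowcell, at -0.47 ± 0.26 (edgeR, adjusted p = 0.999), and in the second, at -0.98 ± 0.21 (adjusted p = 0.0371). Without litter 7, the litter with the most *Peg3* reads at 95.8 RPM in B6/B6 embryos, it was -0.72 ± 0.18 and no longer passed (adjusted p = 0.0776), and without lane J it was -0.69 ± 0.17 (adjusted p = 0.0399).

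The 17 genes that passed in B6 mothers, *Peg3* among them, all lie on chromosome 7 with the locus by which the embryos were grouped. Those with the smallest p included *Sae1*, *C030039L03Rik*, *Ppp1r12c* and *Sbsn*, and *Peg3* was at place 12. *Sae1*, which encodes a subunit of the SUMO-activating enzyme, was higher in B6/Cast by 0.51 ± 0.06 under B6 mothers and by 0.46 ± 0.08 under F1 mothers. *Ppp1r12c* passed under both mothers as well, at 0.43 ± 0.07 and 0.48 ± 0.09. *C030039L03Rik* was lower by -0.94 ± 0.16 under B6 mothers and stood at -0.66 ± 0.17 under F1 mothers, without passing there, and *Sbsn* at -0.52 ± 0.09 and -0.39 ± 0.11. By p *Gm5113* was the next under F1 mothers, at 0.64 ± 0.15 (adjusted p = 0.0917). All 17 had the same sign under both mothers, though *Peg3* stood at -0.01 ± 0.20 under F1 mothers, where its sign carries no weight. *Peg3* was the only 1 of them whose change under F1 mothers was less than 50% of that under B6 mothers. The 17 were picked by passing under B6 mothers, which can overstate changes there, and 0 genes passed the test of the difference. By p of the difference, *Peg3* was followed by *Dapp1* (0.59 ± 0.23), *Foxn4* (0.66 ± 0.26), *Prcp* (0.59 ± 0.24) and *1810029B16Rik* (-0.60 ± 0.25).

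**Figure D5:**
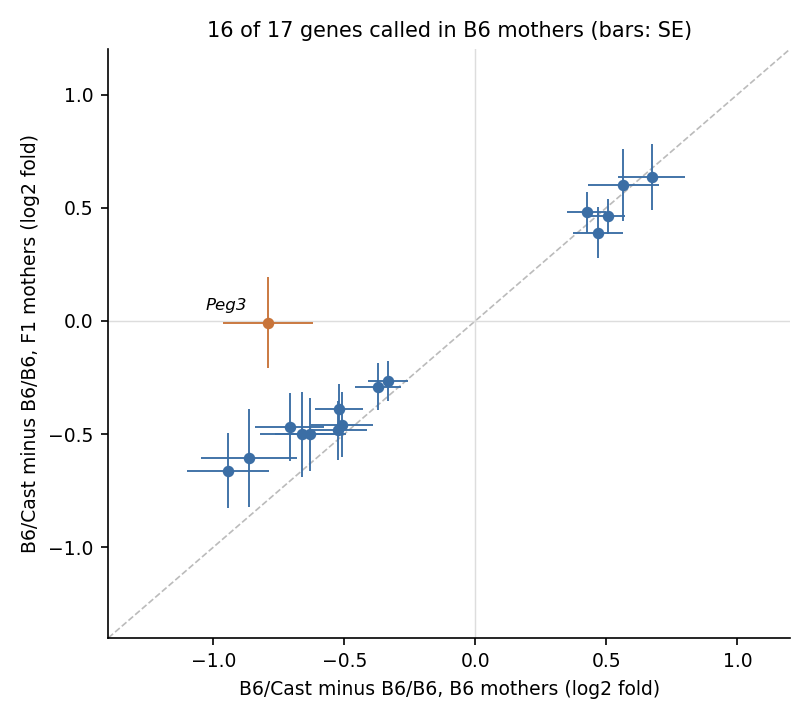
Log2 fold change of B6/Cast over B6/B6 embryos under B6 mothers (horizontal axis) and F1 mothers (vertical axis) for 16 of the 17 genes that passed under B6 mothers, with standard errors and a dashed line of equal change. The other genes plotted lie nearer to the line, with the same sign on both axes, and *Peg3* (orange) lies at -0.79 on one axis and -0.01 on the other.

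*Usp29*, which starts beside *Peg3*, stood at -0.29 ± 0.18 under B6 mothers and at 0.30 ± 0.21 under F1 mothers, and neither passed (edgeR, adjusted p = 1.00 for each). The difference of -0.59 ± 0.28 had an unadjusted p of 0.0359 by edgeR, 1.00 after adjustment. Its medians were 16.9 and 14.5 RPM in B6/B6 and B6/Cast embryos of B6 mothers, and 15.8 and 19.8 RPM in those of F1 mothers. It was lower in B6/Cast in 11 of 16 litters of B6 mothers and in 4 of 11 litters of F1 mothers (exact sign-flip permutation tests, p = 0.136 and 0.123).

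*Apeg3* stood at 0.10 with a 95% interval of -0.37 to 0.57 under B6 mothers and at 0.00 with an interval of -0.46 to 0.47 under F1 mothers. Its median was 4.01 RPM in B6/B6 and 4.44 RPM in B6/Cast embryos of B6 mothers, against 3.07 and 4.18 RPM under F1 mothers. The antisense RNA thus showed no detectable change with genotype, within intervals that hold changes of about the size of that of *Usp29*.

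*Zim1* could be tested only without the filter on low counts, and then stood at 0.28 ± 0.26 under B6 mothers and -0.03 ± 0.29 under F1 mothers. Its median was 0.867 RPM in B6/B6 and 1.31 RPM in B6/Cast embryos of B6 mothers, and 1.46 and 1.77 RPM under F1 mothers. B6/Cast embryos were higher in 13 of 16 litters of B6 mothers (exact sign-flip permutation test, p = 0.0202) and in 4 of 11 litters of F1 mothers (p = 0.865 by the same exact test). At such levels an embryo had few *Zim1* reads, 496 in all 154 embryos together.

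Stage was compared through the somite number, known for 147 N2 embryos. With the mother as a covariate, 35.3% of the 10430 genes tested changed with somite number by edgeR, and 0 of the 3 members tested did. DESeq2 called none of the 3 either, and at an unadjusted p under 0.05 edgeR counted 4763 genes. The slope per somite on the log2 scale was -0.01 ± 0.03 for *Peg3*, 0.07 ± 0.04 for *Apeg3* and 0.01 ± 0.02 for *Usp29*. In embryos of F1 mothers alone *Usp29* fell by 0.10 per somite (edgeR, adjusted p = 0.0319), and in those of B6 mothers its slope was 0.06 ± 0.03. These fits had no term for litter or lane. Spearman's rho of *Usp29* RPM with somite number was -0.21 under F1 mothers (permutation p = 0.102, unadjusted, n = 62). *Zim1*, without the filter on low counts, had a slope of -0.09 ± 0.03 (edgeR, adjusted p = 0.0295).

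Over embryos, the level in RPM had a Spearman's rho with somite number of 0.06 for *Peg3*, 0.07 for *Apeg3*, 0.04 for *Usp29* and -0.18 for *Zim1* (permutation p = 0.503, 0.378, 0.657 and 0.0277, unadjusted, n = 147). Pearson's r was -0.03, 0.08, 0.05 and -0.17 (permutation p = 0.704, 0.367, 0.561 and 0.0344). For *Zim1*, leaving out the 2 embryos whose somite number lay farthest from the median gave r = -0.18. Its rho was -0.31 under B6 mothers, -0.10 under F1 mothers, -0.17 on flowcell 1 and -0.21 on flowcell 2. *Apeg3* had a rho of 0.49 and an r of 0.45 among embryos of F1 mothers (permutation p = 3e-05 and 0.00025, n = 62) and a rho of -0.08 among those of B6 mothers, so the pooled value joined unlike groups. These tests take embryos of shared litters and lanes as independent, and lane medians of *Apeg3* among lanes of F1 mothers ran from 1.52 to 4.99 RPM. With lane as a covariate beside the mother, its slope over all embryos was -0.0011 ± 0.030, and with litter 0.019 ± 0.066, and neither passed (edgeR, adjusted p = 0.990 and 0.976).

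To see which genes varied from embryo to embryo as *Peg3* did, Spearman's rho of log2(RPM + 1) was taken over the 154 N2 embryos after lane means had been subtracted, among 10006 genes whose mean level reached 5 RPM. The values share libraries and depth and are given without a test. Among the highest were those of *Baz2b* (0.649), *Bptf* (0.642), *Zc3h13* (0.639) and *Grb10* (0.639). *Baz2b* and *Bptf* encode chromatin proteins, *Zc3h13* a factor of RNA methylation, and *Grb10* an imprinted inhibitor of growth signalling. The lowest were *Cyba* (-0.577), *Ttll3* (-0.525) and *Emp3* (-0.507). With litter means subtracted in place of lane means, the rho of these 4 genes lay between 0.637 and 0.655 and none of them stayed among the 5 highest.

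The other members were less like *Peg3*. *Usp29* had a rho of 0.362, at place 1513 from the highest, *Apeg3* one of 0.252 at place 3367, and *Zim1* one of 0.140. *Usp29* and *Apeg3* had a rho of 0.438 with each other. With litter means subtracted these values were 0.460 for *Usp29* and 0.382 for *Apeg3* with *Peg3*, and 0.429 for *Usp29* with *Apeg3*, so the order of the pairs depended on the means subtracted. Counting error at these depths bears on all of these values and most on *Zim1*.

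Lists of genes related to the domain were read in the same fits, in which F1 cross cannot be told apart from litter, stage and run. Of 16 other imprinted genes, 0 passed in any comparison by own genotype. Over all genes 0.147% passed under B6 mothers and 0.0259% under F1 mothers, so 0 calls say little about lists of this length. The median log2 fold change of the 16 was 0.02 under B6 mothers and 0.01 under F1 mothers, against -0.01 and 0.00 over all genes tested. Between the F1 crosses 6 of 16 passed, where 25.9% of all genes did, with a median of 0.22 against -0.03 over all genes. *Meg3*, a maternally expressed RNA (1.18 ± 0.19), *Grb10* (1.051 ± 0.185), *Dlk1* and *Snrpn* were higher in B6 × Cast, and *Mest* and *Asb4* (-1.94 ± 0.44) were lower. Between the mothers 5 of 15 passed beside 25.4% of all genes, with a median of 0.05 against 0.02, and with somite number 7 of 15 beside 35.3%, with a median slope of 0.01 against -0.01. The growth factor gene *Igf2* (-0.71 ± 0.17), the cell cycle inhibitor gene *Cdkn1c* (-1.01 ± 0.15) and *Nnat* (-0.77 ± 0.20) were lower with a B6 mother. *Plagl1* (0.71 ± 0.16) and *Dlk1* (0.33 ± 0.11) were higher. With somite number 3 of the 7 rose, among them *Meg3* by 0.08 ± 0.02 per somite, and 4 fell. With litter as a random block in limma the adjusted p was 0.341 for *Igf2* and 0.342 for *Cdkn1c*, and with lane it was 0.667 and 0.412, and none of the 5 was called under either block.

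Of 7 genes for reported partners of the PEG3 protein and apoptosis, 0 passed by own genotype, beside 0.147% and 0.0259% of all genes under B6 and F1 mothers. Their medians were 0.08 under B6 mothers and -0.01 under F1 mothers. Between the F1 crosses 2 of 7 passed, beside 25.9% of all genes, the ubiquitin ligase gene *Siah1a* (-0.86 ± 0.17) and *Trp53*, which encodes p53 (-0.76 ± 0.23), both lower in B6 × Cast, and the median was -0.31. Between the mothers *Mdm2*, the ligase for p53, was lower with a B6 mother (-0.33 ± 0.10), as 1 of 7 beside 25.4% of all genes, with a median of 0.06. This call was lost with litter or lane as a random block (limma, adjusted p = 0.645 and 0.886). With somite number 0 of 7 passed, beside 35.3% of all genes, with a median slope of 0.02.

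Of 5 factors that maintain imprints, 0 passed by own genotype, beside 0.147% and 0.0259% of all genes, and *Dppa3* did not pass the filter on low counts. The medians were 0.00 and 0.07. Between the F1 crosses *Dnmt1*, the maintenance DNA methyltransferase (-0.60 ± 0.16), and its partner *Uhrf1* (-0.88 ± 0.22) were lower in B6 × Cast, 2 of 4 tested beside 25.9% of all genes, with a median of -0.47. Between the mothers 0 of 3 passed, beside 25.4% of all genes, with a median of -0.07. With somite number 0 of 3 passed, beside 35.3% of all genes, with a median slope of 0.00. None of the trophoblast and decidua markers passed the filter on low counts in any of these fits.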

How the data were processed

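Single embryos were profiled by 3SEQ. The deposited gene tables hold raw read counts on exons of RefSeq genes, for which the authors trimmed poly(A) ends, aligned reads with Bowtie2 to mm9 and to a Cast version of it, and discarded repetitive reads. The deposited allele votes, treated as estimated counts, split each read equally over its SNPs, and the authors left out SNPs near Cast indels. The deposited genotype codes, 1 for B6/B6 and 0.5 for B6/Cast, came from the authors' hidden Markov model. Per the labels the tools were Bowtie2 and the build mm9, with versions not given in the sources used here.

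Votes were rounded for the binomial tests. RPM are counts per 1000000 counted reads. Expression was tested with edgeR 4.0.16 in R 4.3.3 (TMM, filterByExpr, quasi-likelihood F test, Benjamini-Hochberg over all genes tested), with litter as covariate for the embryo's own genotype and the mother for somite number. The standard error is the log2 fold change divided by the square root of F. DESeq2 1.42.0 and limma 3.58.1 gave alternatives, and permutation tests used scipy 1.17.1. Where nothing in the labels ties embryos beyond their litter, p-values measure the spread between these embryos. The scripts were tested on simulated data.

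Of 168 N2 columns, 8 whose labels name no mother and 6 without genotypes were left out. The members and lists were chosen with earlier results of these data known. Genes named are the members, their 5 nearest neighbours on each side, the 5 with the smallest p for each own-genotype term, the 5 with the highest and the 3 with the lowest rho with *Peg3*, and the lists. Some genes that this rule names are not reported here. For imprinting the study names a binomial test with Bonferroni correction, the kind of test used here. Its tests of expression by mother, genotype and somite number were rank tests, which appear here as alternatives. Alternatives with a litter, lane or embryo left out, within flowcells, and with other filters and scalings are given in the closing section.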

Additional observations from a re-analysis of the deposited data

Results flagged for a closer look

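Over 16 groups of 8 F1 embryos tested for a single distant value, 2 had one, where chance gives about 1 in 20. *Apeg3* stood at 5.59 RPM in embryo 3 of litter 5 of B6 × Cast, and the next embryo of that cross stood at 3.55 RPM. *Peg3* gave 10.8 votes per 100 reads in embryo 1 of litter 1 of Cast × B6, against 18.5 in the next lowest embryo, and that embryo also had the highest *Peg3* level of all F1 embryos, 63.5 RPM.

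The effect of the embryo's own genotype differed between the mothers at an unadjusted p under 0.05 for *Peg3* and *Usp29*, and this did not hold after adjustment. For *Peg3* the difference was -0.78 on the log2 scale (edgeR, unadjusted p = 0.00331), and for *Usp29* it was -0.59 (edgeR, unadjusted p = 0.0359). After adjustment over all 11561 genes both had p = 1.00.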

How the results depend on the processing

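No paired analysis was possible because the replicate numbers only name embryos and tie none of them across groups (littermates were paired by litter instead, for own genotype). *Peg3*, *Apeg3*, *Usp29* and *Zim1* were all called imprinted with any 1 F1 litter left out, where between 73 (without litter 3 of B6 × Cast) and 185 genes were called. Of them 2 were tested and called with at least 100 votes per cross, and 1 was called by the quasi-binomial test, with 16 genes. Requiring the N2 crosses too left 31 genes. With at least 1 vote per N2 embryo the BAF differed between the mothers by -1.0 for *Apeg3*, -0.941 for *Usp29* and 0.982 for *Zim1*, and the silenced share of *Peg3* under B6 mothers was 2.73% as a mean over embryos.

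Between the F1 crosses 1 member was called in the stage-matched litters (*Usp29*, 1549 genes), 1 without litter 1 of Cast × B6 (*Usp29*, 1696 genes) and 1 without litter 5 of B6 × Cast (*Apeg3*, -0.67, adjusted p = 0.0459 by edgeR). The genes called numbered 2086 without litter 3 of B6 × Cast and 6223 without litter 2 of Cast × B6. With scaling by library totals alone, 2080 genes were higher and 1343 lower in B6 × Cast, against 1802 and 1986.

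Between the mothers *Apeg3* was not called, leaving 0 members, by Mann-Whitney tests, in the first flowcell (-0.10, 4016 genes), in heterozygous embryos alone (311 genes), with lane (-0.074, 1 gene) or litter (0 genes) as a random block in limma, or without lane J. There were 4315 genes in the second flowcell, and 2 members were called without the low-count filter.

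For own genotype under B6 mothers *Peg3* was not called, leaving 0 members, in the first flowcell (-0.47, 4 genes), with no covariate but the mother (-0.71, 9 genes), by rank-sum tests on lane-centred values (-0.69), or without litter 7 (-0.72, 11 genes), and the second flowcell gave 4 genes. Under F1 mothers the genes called were 5 by DESeq2, 13 and 0 in the separate flowcells, 9 with lane as covariate, 5 without the filter and 15 by rank-sum tests. With somite number 2206 genes were called by Spearman's correlation, 1338 in embryos of F1 mothers (1 member, *Usp29*, -0.10), 1059 with lane and 174 with litter as covariate, and 1 member (*Zim1*) without the filter. Of the 5 genes most like *Peg3*, 1 was shared with litter means subtracted. The causes were not tested. The alternatives without lane J, without litter 7, without the Cast × B6 embryo with the most *Peg3* reads, with somite number beside litter, within 1 genotype, and without the embryo with the most votes of the silenced *Peg3* allele were chosen after seeing the data. Depth limits *Zim1* and *Apeg3* most.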
